A study of Homo sapiens with 5 samples.

Results

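The 38 genes described here are type I interferon response genes, picked by name out of 16982 genes measured in SAS cells, an established human line of squamous cell carcinoma of the tongue. They fall by role into 5 sensors of foreign RNA, 4 transcription factors and 29 effectors. They were chosen with earlier results of these data known, so shares of them set beside all genes are description only. The libraries compared were 3 from cells with short hairpin RNA against CCT2 (shCCT2 1, 2 and 3) and 2 from cells with control short hairpin RNA (shCtrl 1 and 2). CCT2 is one of the subunit genes of CCT, the chaperonin that folds actin, tubulin and other proteins. All libraries carried a hairpin, and the labels name no interferon, virus or other agent. The labels do not say whether shCCT2 1, 2 and 3 carried 1 hairpin sequence or several, nor that they came from separate cultures, so the spread behind the p-values may be technical. SAS is 1 line, so results hold for it alone. Expression was deposited in 2 tables: set A holds shCCT2 1, shCCT2 2 and shCtrl 1, and set B holds shCCT2 3 and shCtrl 2. Of the 38 genes, 37 were listed in both tables and all 37 passed the filter on low counts, while IFI27 was listed in set B alone.

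Type I interferons bind a receptor built from IFNAR1 and IFNAR2, and the attached kinases JAK1 and TYK2 then activate a complex that contains STAT2 and IRF9. That complex binds a short promoter element, the interferon-stimulated response element, beside genes whose products block viral entry, translation, replication or release. Cytosolic sensors such as RIG-I and MDA5 act upstream of interferon: on viral RNA they signal through MAVS to the factor IRF3, which can also switch on some of these genes directly. Tumour cell lines are known to carry this programme at very different basal levels.

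Promoters are shown first. The choice by name did not read these sequences, but it took genes known to respond to interferon. An excess of the letters of the response element was thus largely fixed by that choice, and the shares below are description only. RefSeq promoter windows on GRCh38.p14 could be matched for 30 of the 38 genes; DHX58, IRF7, OAS2, OASL, IFIT2, MX2, USP18 and TRIM22 had no entry. The core of the element, GAAA, any 2 bases and GAAA again, searched on both strands in the 250 bases before the start, was found for 19 of the 30 (63.3%), against 1014 of 27305 genes (3.71%). The letters TTCNNNGAA, a second interferon element known as GAS, were found for 9 of the 30 (30%), against 8.09% of all genes; in BST2, IFI27 and MX1 a GAS match overlapped a match to the core. Below are stretches around the match nearest the start of the window shown, for the 6 genes with the highest mean CPM among those described in full that held the core. IFI44 and IFIT3 have 2 windows each, and the one with the lower coordinates is shown. Capitals mark the core, which lies on the opposite strand in IFI44 and IFIT3.
OAS3 (chr12:112938432-112938473, plus strand): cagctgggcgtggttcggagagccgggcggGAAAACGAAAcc
PARP14 (chr3:122680780-122680838, plus strand): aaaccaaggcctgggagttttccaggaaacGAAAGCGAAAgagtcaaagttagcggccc
SAMD9 (chr7:93118076-93118145, minus strand): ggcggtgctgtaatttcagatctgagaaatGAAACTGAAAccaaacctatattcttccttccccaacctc
DDX60 (chr4:168318766-168318840, minus strand): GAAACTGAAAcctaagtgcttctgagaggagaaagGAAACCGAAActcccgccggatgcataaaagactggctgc
IFI44 (chr1:78649741-78649788, plus strand): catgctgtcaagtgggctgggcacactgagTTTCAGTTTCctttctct
IFIT3 (chr10:89327841-89327914, plus strand): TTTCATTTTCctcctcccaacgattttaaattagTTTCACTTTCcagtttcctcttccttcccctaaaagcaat
The core ended 2 bases before the start of the window shown in OAS3, 8 in IFI44, 19 in PARP14, 43 in DDX60, 112 in IFIT3 and 126 in SAMD9. These distances depend on the start: the second IFIT3 window also held the core, nearer to its own start. DDX60 and IFIT3 each held the core more than once within the stretch shown. The letters were not found for DDX58, EIF2AK2, STAT2, IRF1, IRF9, OAS1, UBE2L6, HERC6, IFI35, CMPK2 and XAF1, which says only that they are not in these windows.

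Library totals ran from 17555763 to 18156592 counts in shCCT2 and from 16913585 to 17976483 in shCtrl. CCT2 itself stood at 296, 272 and 259.8 normalised CPM (counts of a gene scaled to the size of its library, with TMM factors) in shCCT2 1, 2 and 3, against 629 and 641 CPM in shCtrl 1 and 2. Its fitted log2 change was -1.22 ± 0.18 (SE, 3 against 2 libraries), in the direction of the labels. It did not pass edgeR's quasi-likelihood test (Benjamini-Hochberg adjusted p = 0.542) and passed DESeq2's Wald test (adjusted p = 3.81e-05). All 9 epithelial markers, among them KRT5, KRT14 and EPCAM, were detected. They summed to between 6743 and 12455 CPM in shCCT2 and between 2850 and 12225 CPM in shCtrl, mostly KRT8 and KRT18. Single markers differed more: CDH1 stood at 185, 212 and 24.9 CPM in shCCT2 1, 2 and 3, against 251 and 10.6 CPM in shCtrl 1 and 2. All but KRT6A were lower in shCtrl 2 than in shCtrl 1. KRT6A stood at 45.5, 45.8 and 629 CPM in shCCT2 1, 2 and 3, against 40.2 and 64.7 CPM in shCtrl 1 and 2. The lowest sum of each group was that of set B, and its part in the results was not tested. Of 8 leukocyte markers measured, CD3E (listed in set A alone), ITGAM and HLA-DRA stayed below 1 CPM in every library that listed them. The list summed to between 44.6 and 160.1 CPM in shCCT2 and between 66.0 and 154 CPM in shCtrl, mostly CD68. PTPRC had 11, 109 and 1 counts in shCCT2 1, 2 and 3, against 1 and 8 in shCtrl 1 and 2. CD14 stood at 2.94, 15.4 and 0.327 CPM in shCCT2 1, 2 and 3, against 6.22 and 1.06 CPM in shCtrl 1 and 2. CD74 stood at 27.9, 39.3 and 0.273 CPM in shCCT2 1, 2 and 3, against 35.6 and 3.34 CPM in shCtrl 1 and 2. PTPRC and CD14 were thus highest in shCCT2 2, and their part in the results was not tested. Fibroblast markers summed to at most 4.85 CPM in shCCT2 and 12.4 CPM in shCtrl, and endothelial markers to at most 3.52 CPM in shCCT2 and 7.46 CPM in shCtrl. The share of reads in the last 20% of windows along transcripts was 14.3%, 15.8% and 14.6% in shCCT2 1, 2 and 3, against 17.3% and 15.8% in shCtrl 1 and 2, and its part in the results was not tested.

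The first comparison asks whether the interferon genes moved with CCT2 over all 5 libraries, with the set as a term of the fit. No interferon gene passed: 0 of 37 were called at an adjusted p under 0.05, and 0% of the 13123 genes tested were (edgeR's quasi-likelihood test, lowest adjusted p 0.542). DESeq2's Wald test also called 0 of the 37, and 0.13% of all genes (17 genes). At its unadjusted p under 0.05, IFI6, OAS3, RSAD2 and XAF1 were higher (4.05% of all genes were) and UBE2L6 was lower (6.04% of all genes were). The fitted change was above 0 for 22 of the 37 genes (59.5%), against 48.5% of all genes, with a median of 0.21 against -0.02 for all genes tested. That median was -0.058 without shCtrl 1, 0.52 without shCtrl 2 and 0.51 without shCCT2 3. At an unadjusted p under 0.05, OAS3, MX1 and XAF1 were higher (2.83% of all genes were) and none of the 37 was lower (4.57% of all genes were). In bulk RNA, fewer cells that make a transcript and less transcript per cell cannot be told apart.

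The combined values pool sets whose medians differed, although no interferon gene passed the adjusted threshold in the main fit of that difference, given below. The median log2 change of the 37 genes was 0.30 in shCCT2 1 and 0.38 in shCCT2 2, each against shCtrl 1, and -0.086 in shCCT2 3 against shCtrl 2. The medians of all genes tested lay between -0.02 and 0.00 in the same libraries. Single-library changes are on the log2(CPM + 0.5) scale, which understates the change of genes with few counts. Both shCCT2 libraries of set A were above shCtrl 1 for 24 of the 37 genes (31.8% of all genes), and both were below it for PARP14 and STAT2 alone (32.4% of all genes). In set B, shCCT2 3 was above shCtrl 2 for 14 of the 37 (48.8% of all genes). Across the 37 genes, the mean change in set A and the change in set B, which share no library, had a Pearson correlation of -0.02 and a Spearman correlation of -0.00, and over all 13123 genes 0.31 and 0.35. These correlations run over genes, which are not independent replicates, and describe these libraries only.

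**Figure D1:**
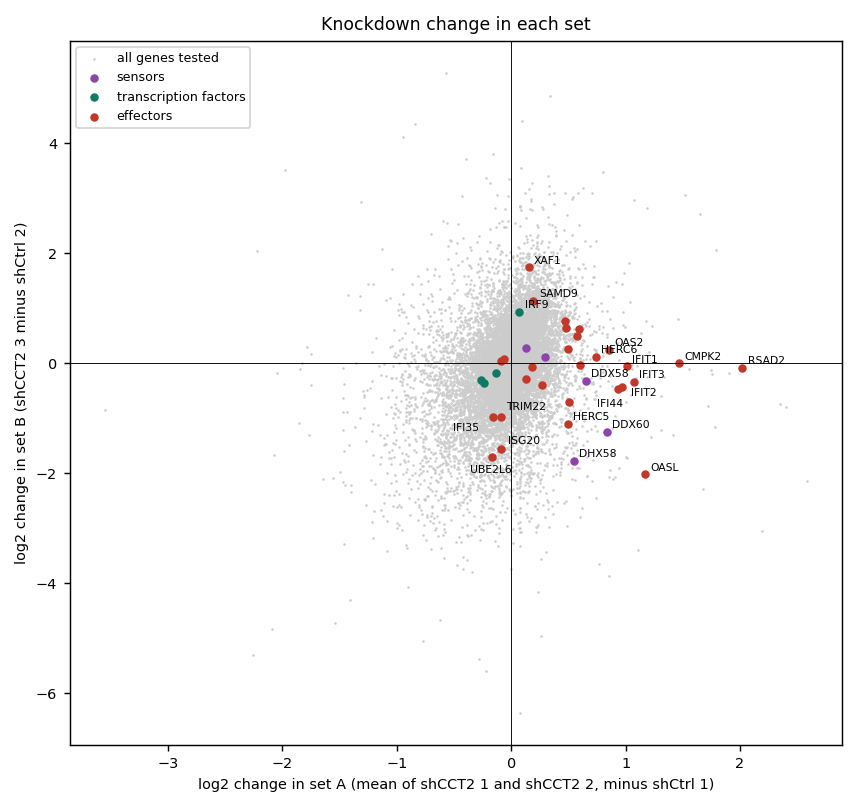
Knockdown change of each gene tested in set A (x axis, mean log2 change of shCCT2 1 and shCCT2 2 minus shCtrl 1) and in set B (y axis, log2 change of shCCT2 3 minus shCtrl 2). Grey points are all 13123 genes and coloured points the 37 interferon genes by role; RSAD2, CMPK2, OASL, IFIT1, IFIT2 and IFIT3 lie right of most genes at or below 0 on the y axis. Of the transcription factors, IRF9 lies above 0 on the y axis and the others just below it.

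In set A the fitted change was above 0 for 27 of 36 genes tested (75%), against 50.8% of all genes. At an unadjusted p under 0.05, CMPK2, DDX58, DDX60, HERC6, IFI44, IFIT1, IFIT2, IFIT3, OASL and RSAD2 were higher, which is 10 of the 36 (27.8%), against 0.704% of the 12785 genes tested in that set. None of the 36 was lower, against 1.24% of all genes. After adjustment over all genes 0 of the 36 passed (edgeR's quasi-likelihood test on shCCT2 1 and 2 against shCtrl 1, adjusted p of 1 for each member), and 0% of all genes did. Without scaling beyond library size, and with at least 1 CPM in every library, 0 members passed and 0.0626% and 0.0517% of all genes did. With 0.5 added to each CPM, both libraries were at least 1.5-fold above shCtrl 1 for 9 of the 37 genes (24.3%), against 0.678% of all genes. They were at least 1.5-fold below it for 0 of the 37, against 1.84%. The 9 were CMPK2, DDX60, IFI44, IFIT1, IFIT2, IFIT3, OAS2, OASL and RSAD2. By CPM alone MX2 was 1.67- and 1.69-fold its control in shCCT2 1 and 2, but with 0.5 added it fell short. Both comparisons rest on the same single control library, and the 1 residual degree of freedom comes from shCCT2 1 against shCCT2 2, so the spread of the control was not measured. The genes were chosen with earlier results of these data known and are not independent replicates, so these shares are description only.

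Set B has 1 library per group, so its values carry no test of their own. There shCCT2 3 was at least 1.5-fold above shCtrl 2 for IFI6, IRF9, MX2, OAS3, SAMD9 and XAF1 (19.8% of all genes) and at least 1.5-fold below it for 9 genes (24.5% of all genes). The 9 were DDX60, DHX58, HERC5, IFI35, ISG15, ISG20, OASL, TRIM22 and UBE2L6. These shares of the 37, 16.2% and 24.3%, lie near those of all genes. Both set A libraries were above and the set B library below its control for 15 of the 37 (11.6% of all genes), and the reverse held for PARP14 alone (11% of all genes). For DDX60 and OASL both moves were of at least 1.5-fold on the same scale (0.198% of all genes). The count of 15 is of signs alone. Among them, CMPK2, BST2, IFIT1, PARP9 and RSAD2 were near level in set B, with log2 changes from -0.0856 to -0.0069.

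**Figure D2:**
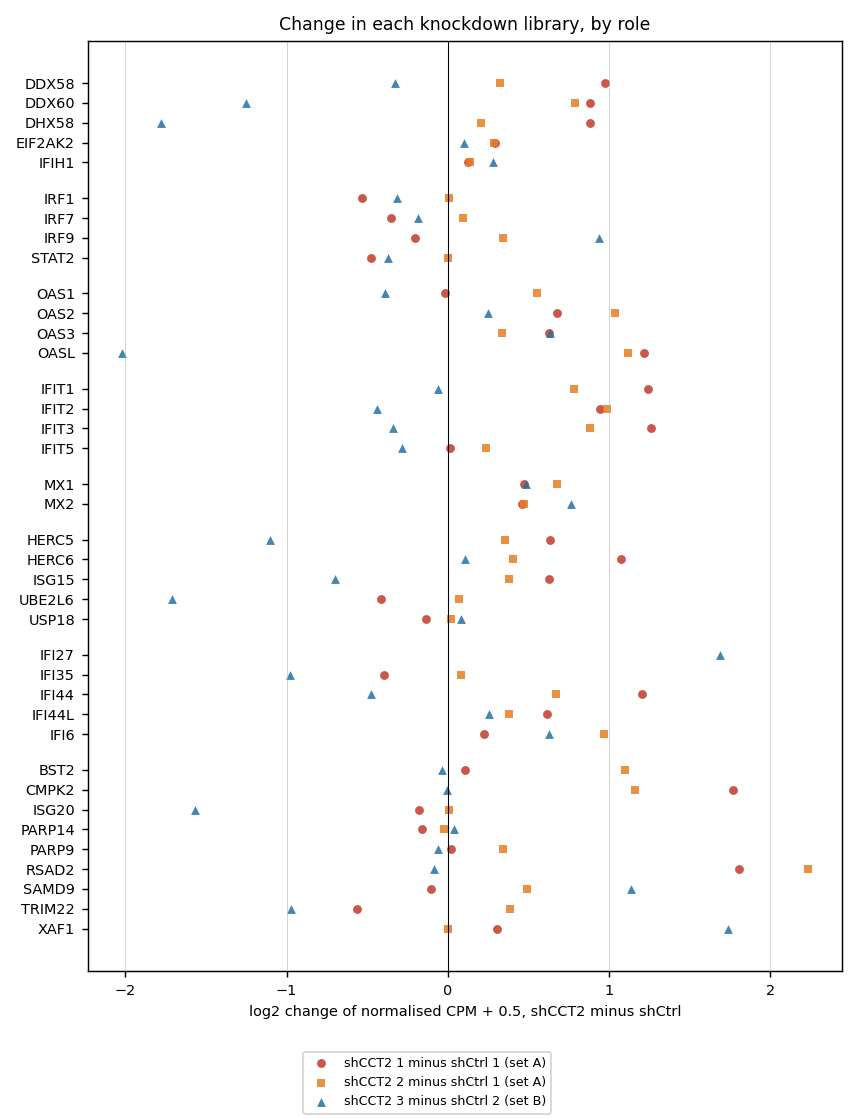
Log2 change of normalised CPM + 0.5 (x axis) of each interferon gene in shCCT2 1, shCCT2 2 and shCCT2 3, each minus the shCtrl library of its own set, with genes in blocks by role (y axis). In the IFIT block both set A points lie above 0 and the set B point lies below 0, while both MX genes lie above 0 in all 3 libraries.

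The difference between the sets was fitted as the knockdown change in set B minus that in set A. Here shCtrl 1, shCtrl 2 and shCCT2 3 are single libraries, so the spread comes from shCCT2 1 against shCCT2 2 alone. Nothing measures the spread of either control or of set B, which the fit takes to vary like that pair, and the calls below hold only under that assumption. Of the 37 genes, 0 passed the adjusted threshold, as did 0% of all genes, and OASL had the lowest adjusted p, 0.0919 (edgeR's quasi-likelihood test of the interaction, with 1 residual degree of freedom). At an unadjusted p under 0.05 the change in set B was below that in set A for 13 of the 37 (35.1%), against 9.36% of all genes, and above it for none of the 37, against 7.85% of all genes. The fitted difference was above 0 for 7 of the 37, against 50% of all genes. The 13 were CMPK2, DDX60, DHX58, HERC5, IFI44, IFIT1, IFIT2, IFIT3, ISG15, ISG20, OASL, RSAD2 and UBE2L6. The call depended on the processing. With only genes of at least 1 CPM in every library, 8 of 32 genes passed (25%), all with the lower change in set B, against 3.35% of all genes in that direction and 6.05% in either; they were DDX60, HERC5, IFI44, IFIT2, IFIT3, ISG15, OASL and UBE2L6. Without scaling beyond library size the same 8 and RSAD2 passed, 9 of 37 (24.3%), against 2.66% of all genes in that direction and 4.38% in either. With DESeq2's size factors or with no filter on low counts 0 passed.

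**Figure D3:**
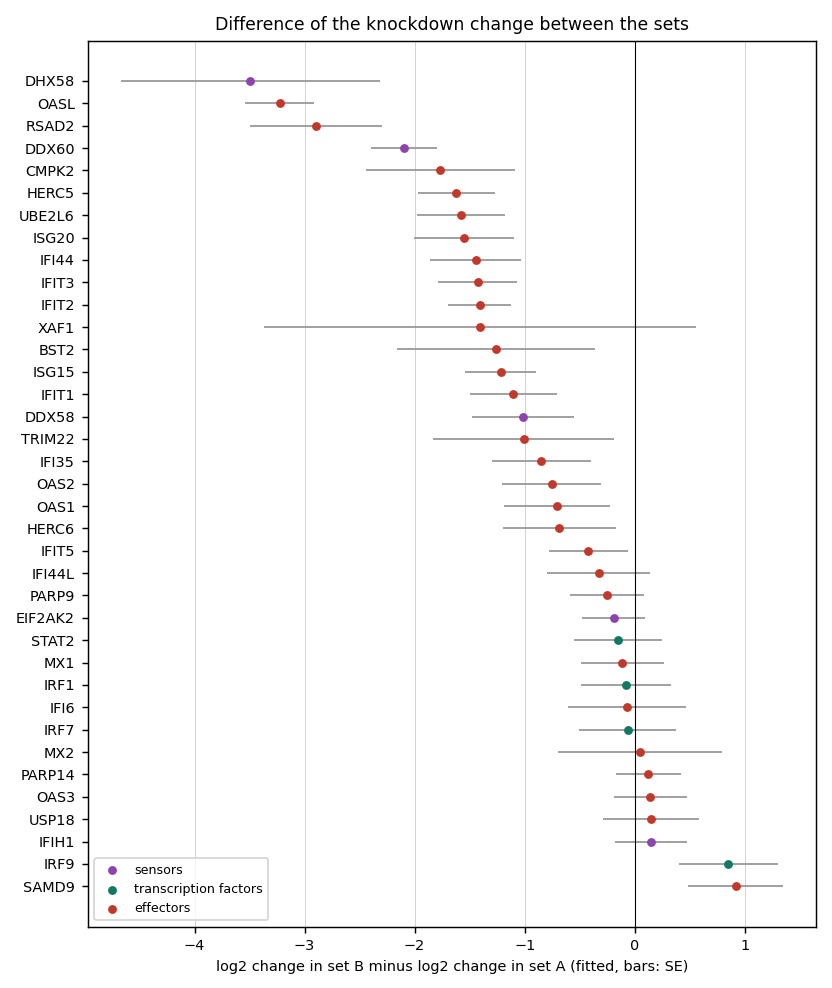
Fitted log2 change in set B minus that in set A (x axis, bars show the SE) for the 37 interferon genes tested, sorted by value and coloured by role. DHX58, OASL, RSAD2 and DDX60 lie furthest below 0, the transcription factors STAT2, IRF1 and IRF7 lie at 0 within their SE, and IRF9 and SAMD9 lie furthest above it.

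Among the sensors, DDX58, DDX60 and DHX58 were above their control in set A and below it in set B. DDX58 encodes RIG-I and stood at 148 CPM in shCCT2 1 and 94.3 in shCCT2 2, against 75.2 in shCtrl 1, and at 50.3 CPM in shCCT2 3, against 63.1 in shCtrl 2. DDX60, a helicase that supports RIG-I, stood at 134 and 126 CPM in shCCT2 1 and 2, against 72.7 in shCtrl 1, and at 89.9 CPM in shCCT2 3, against 215 in shCtrl 2. Its difference between the sets was -2.10 ± 0.30 on the log2 scale (SE), with an adjusted p of 0.124 in edgeR's test. Both set A libraries were thus above their control for both genes, and the set B library was below its own. DHX58, which encodes the RIG-I regulator LGP2, was scarce, with 18 and 8 counts in shCCT2 1 and 2, against 6 in shCtrl 1, and 13 counts in shCCT2 3, against 69 in shCtrl 2.

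The other sensors differed less from their controls. EIF2AK2, which encodes the translation-blocking kinase PKR, stood at 179 and 178 CPM in shCCT2 1 and 2, against 146 in shCtrl 1, and at 128 CPM in shCCT2 3, against 119 in shCtrl 2. Its fitted change was 0.21 ± 0.18 (SE; adjusted p = 0.614, edgeR). IFIH1, which encodes MDA5, was 1.09-, 1.10- and 1.21-fold its control in shCCT2 1, 2 and 3, with a fitted change of 0.20 ± 0.19.

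The transcription factors that carry the signal were not among the 10 genes named above for set A. STAT2 stood at 28.4 and 39.7 CPM in shCCT2 1 and 2, against 39.7 in shCtrl 1, and at 57.9 CPM in shCCT2 3, against 75.0 in shCtrl 2. It was the 1 gene of the 37 below its control in all 3 shCCT2 libraries (21.4% of all genes were), with a log2 change of only -0.0012 in shCCT2 2, and its fitted change was -0.29 ± 0.22 (SE; adjusted p = 0.584, edgeR). IRF1, a factor shared with the response to interferon gamma, stood at 93.1 and 135 CPM in shCCT2 1 and 2, against 135 in shCtrl 1, and at 53.1 CPM in shCCT2 3, against 66.1 in shCtrl 2. The median change of the 4 factors was -0.42 in shCCT2 1 and 0.052 in shCCT2 2, against the same control, and -0.25 in shCCT2 3.

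IRF7, which amplifies interferon production, stood at 4.71 and 6.62 CPM in shCCT2 1 and 2, against 6.16 in shCtrl 1, and at 50.5 CPM in shCCT2 3, against 57.5 in shCtrl 2. Its level thus differed far more between the sets than between shCCT2 and shCtrl. IRF9, the DNA-binding part of that complex with STAT2, stood at 15.6 and 23.1 CPM in shCCT2 1 and 2, against 18.1 in shCtrl 1, and at 62.7 CPM in shCCT2 3, against 32.5 in shCtrl 2. It was the 1 factor above its control in set B (fitted change 0.46 ± 0.30, SE; adjusted p = 0.551, edgeR).

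The OAS genes encode enzymes that make oligoadenylates, the activator of RNase L, and OASL a relative without that activity that enhances RIG-I signalling. OAS3 stood at 215 and 175 CPM in shCCT2 1 and 2, against 139 in shCtrl 1, and at 328 CPM in shCCT2 3, against 211 in shCtrl 2. It was higher in all 3 shCCT2 libraries, by 1.55-, 1.26- and 1.55-fold, with a fitted change of 0.55 ± 0.19 (SE; adjusted p = 0.542, edgeR). OASL lay on opposite sides of its control in the sets. OASL stood at 32.9 and 30.6 CPM in shCCT2 1 and 2, against 13.9 in shCtrl 1, and at 54.7 CPM in shCCT2 3, against 224 in shCtrl 2. Its difference between the sets was -3.23 ± 0.31 (SE), the value with the lowest adjusted p given above.

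OAS2 stood at 3.88 and 5.13 CPM in shCCT2 1 and 2, against 2.25 in shCtrl 1, and at 51.8 CPM in shCCT2 3, against 43.6 in shCtrl 2. OAS1 stood at 8.18 and 12.4 CPM in shCCT2 1 and 2, against 8.29 in shCtrl 1, and at 37.3 CPM in shCCT2 3, against 49.0 in shCtrl 2. OAS1, OAS3 and OAS2 lie side by side on chromosome 12 in the RefSeq order of genes. OAS2 shared the direction of OAS3 in every library, and OAS1 was below its control in shCCT2 1 and shCCT2 3.

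The IFIT genes, whose products bind viral RNA or block translation, stood above their control in both shCCT2 libraries of set A and below it in set B. IFIT2 stood at 159 and 165 CPM in shCCT2 1 and 2, against 82.7 in shCtrl 1, and at 65.2 CPM in shCCT2 3, against 88.6 in shCtrl 2. IFIT3 stood at 174 and 134 CPM in shCCT2 1 and 2, against 72.4 in shCtrl 1, and at 62.5 CPM in shCCT2 3, against 79.1 in shCtrl 2. For both genes the control libraries of the sets were close, and the shCCT2 libraries of the sets lay further apart. Each control is a single library, and what made the sets differ was not tested. IFIT1 stood at 66.9 and 48.6 CPM in shCCT2 1 and 2, against 28.0 in shCtrl 1, and at 62.5 CPM in shCCT2 3, against 65.1 in shCtrl 2. Within set A the fitted changes were 0.97 ± 0.20 for IFIT2, 1.09 ± 0.24 for IFIT3 and 1.04 ± 0.27 for IFIT1 (SE), none past the adjusted threshold. IFIT5, next to IFIT1 on chromosome 10, was 1.01- and 1.18-fold its control in shCCT2 1 and 2 and 0.819-fold in shCCT2 3.

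The MX genes encode dynamin-like GTPases that trap viral particles, and both were above their control in all 3 shCCT2 libraries. MX1 stood at 11.9 and 13.8 CPM in shCCT2 1 and 2, against 8.46 in shCtrl 1, and at 46.2 CPM in shCCT2 3, against 32.8 in shCtrl 2. MX2 stood at 1.06 and 1.07 CPM in shCCT2 1 and 2, against 0.633 in shCtrl 1, and at 16.5 CPM in shCCT2 3, against 9.53 in shCtrl 2. Their fitted changes were 0.55 ± 0.23 and 0.77 ± 0.36 (SE; adjusted p = 0.542 for both, edgeR). They were among the 9 genes of the 37 higher in all 3 shCCT2 libraries, beside EIF2AK2, HERC6, IFI44L, IFI6, IFIH1, OAS2 and OAS3, and 20.2% of all genes were. MX2 was scarce in set A, with no library above 18 counts.

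**Figure D4:**
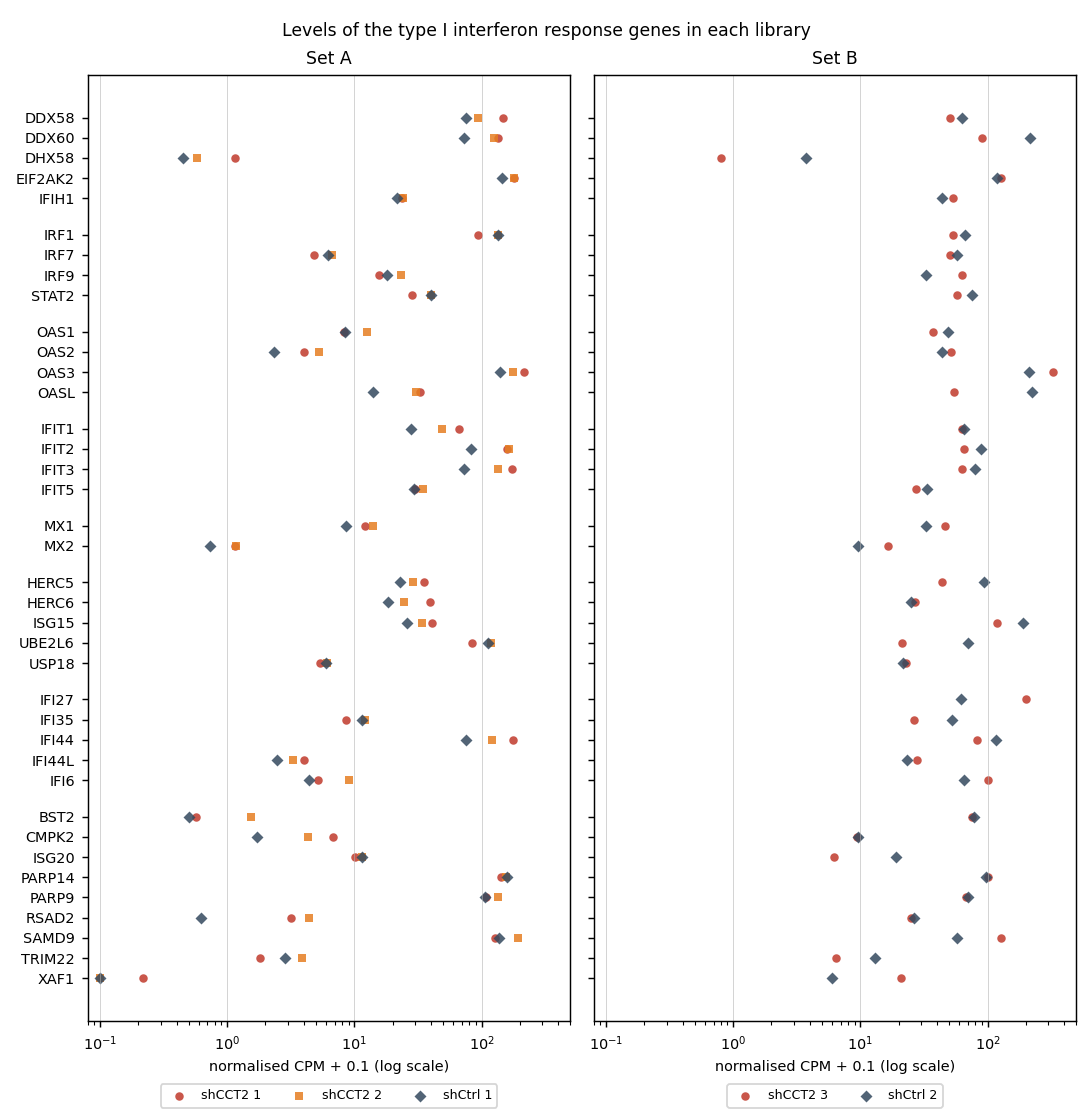
Normalised CPM + 0.1 on a log axis (x axis) of each interferon gene (y axis, in blocks by role) in the libraries of set A (left) and set B (right). BST2, IRF7, IFI6 and OAS2 sit far to the right in set B in both the shCCT2 and the shCtrl library, while the shCtrl points of IFIT2 and IFIT3 sit alike in both sets.

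ISG15 is a ubiquitin-like protein that is joined to other proteins by the conjugating enzyme UBE2L6 and the ligase HERC5 and removed by USP18. ISG15 stood at 40.4 and 34.0 CPM in shCCT2 1 and 2, against 26.0 in shCtrl 1, and at 118 CPM in shCCT2 3, against 192 in shCtrl 2. HERC5 stood at 35.4 and 29.02 CPM in shCCT2 1 and 2, against 22.6 in shCtrl 1, and at 43.6 CPM in shCCT2 3, against 94.2 in shCtrl 2. ISG15 and HERC5 shared the pattern of DDX58 and DDX60, higher in set A and lower in set B. UBE2L6 stood at 84.6 and 119 CPM in shCCT2 1 and 2, against 113 in shCtrl 1, and at 21.0 CPM in shCCT2 3, against 69.9 in shCtrl 2. Its fitted change of -0.84 ± 0.39 (SE; adjusted p = 0.542, edgeR) was the lowest of the 37 and rested on set B. HERC6, a relative of HERC5 next to it on chromosome 4, was 2.14-, 1.33- and 1.08-fold its control in shCCT2 1, 2 and 3, and USP18 was 0.901-, 1.01- and 1.06-fold.

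Of the genes named for induction by interferon, IFI44 stood at 176 and 121 CPM in shCCT2 1 and 2, against 76.1 in shCtrl 1, and at 83.3 CPM in shCCT2 3, against 116 in shCtrl 2. Its neighbour on chromosome 1, IFI44L, stood at 3.88 and 3.22 CPM in shCCT2 1 and 2, against 2.36 in shCtrl 1, and at 27.7 CPM in shCCT2 3, against 23.1 in shCtrl 2. In set B the neighbours thus lay on opposite sides of their control. IFI6, a mitochondrial protein gene that protects against cell death, stood at 5.12 and 8.94 CPM in shCCT2 1 and 2, against 4.32 in shCtrl 1, and at 100.5 CPM in shCCT2 3, against 65.0 in shCtrl 2. IFI35 stood at 8.53 and 12.1 CPM in shCCT2 1 and 2, against 11.4 in shCtrl 1, and at 26.5 CPM in shCCT2 3, against 52.8 in shCtrl 2. IFI6 had a fitted change of 0.67 ± 0.29 and IFI35 of -0.53 ± 0.31 (SE; adjusted p = 0.542 for both, edgeR). IFI27, listed in set B alone, had 3705 counts (202 CPM) in shCCT2 3, against 1175 counts (62.2 CPM) in shCtrl 2, a 3.25-fold higher level with no replicate check.

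The highest fitted changes of the 36 genes tested in set A were those of RSAD2, which encodes the radical-SAM enzyme viperin, and CMPK2, a nucleotide kinase gene that supplies the nucleotide viperin uses and lies next to it on chromosome 2. RSAD2 had 52 and 72 counts (3.06 and 4.29 CPM) in shCCT2 1 and 2, against 9 counts (0.518 CPM) in shCtrl 1, and 25.0 CPM in shCCT2 3, against 26.5 CPM in shCtrl 2. CMPK2 had 114 and 71 counts (6.71 and 4.23 CPM) in shCCT2 1 and 2, against 28 counts (1.61 CPM) in shCtrl 1, and 9.38 CPM in shCCT2 3, against 9.42 CPM in shCtrl 2. The pair thus stood higher in both set A libraries and level in set B. Within set A the fitted changes were 2.81 ± 0.62 for RSAD2 and 1.76 ± 0.51 for CMPK2 (SE), neither past the adjusted threshold, and both rest on few counts in 1 control.

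BST2, which encodes tetherin, a membrane protein that holds budding virus, had 8 and 24 counts in shCCT2 1 and 2, against 7 in shCtrl 1, and stood at 75.5 CPM in shCCT2 3, against 77.6 in shCtrl 2. XAF1, a pro-apoptotic gene, had 2 and 0 counts in shCCT2 1 and 2, against 0 in shCtrl 1, and stood at 20.8 CPM in shCCT2 3, against 5.88 in shCtrl 2. TRIM22, a ubiquitin ligase gene, stood at 1.71 and 3.75 CPM in shCCT2 1 and 2, against 2.76 in shCtrl 1, and at 6.38 CPM in shCCT2 3, against 13.02 in shCtrl 2. BST2 and XAF1 were near silent in every set A library, so the fitted change of XAF1, 1.88 ± 0.70 (SE; adjusted p = 0.542, edgeR), comes from the pair of set B.

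SAMD9, an antiviral restriction factor gene, stood at 129 and 195 CPM in shCCT2 1 and 2, against 138 in shCtrl 1, and at 127 CPM in shCCT2 3, against 57.7 in shCtrl 2. PARP9, which encodes a partner of the ubiquitin ligase DTX3L, stood at 108 and 134 CPM in shCCT2 1 and 2, against 106 in shCtrl 1, and at 67.3 CPM in shCCT2 3, against 70.3 in shCtrl 2. PARP14, a mono-ADP-ribosyltransferase gene close to PARP9 on chromosome 3, stood at 141 and 155 CPM in shCCT2 1 and 2, against 158 in shCtrl 1, and at 100.1 CPM in shCCT2 3, against 97.7 in shCtrl 2. SAMD9 had the highest value of the difference between the sets, 0.92 ± 0.43 (SE; adjusted p = 0.338, edgeR), and the PARP genes stayed within 1.27-fold of their control in every library. ISG20, an RNA exonuclease gene, was 0.877-, 1.004- and 0.320-fold its control in shCCT2 1, 2 and 3.

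The control libraries themselves had different levels of these genes. The level in shCtrl 2 was above that in shCtrl 1 for 30 of the 37 genes (49.9% of all genes) and at least 4-fold above it for 16 of the 37 (43.2%), against 8% of all genes. It was at least 4-fold below it for 0 of the 37, against 3.94% of all genes. BST2 was 192-fold higher in shCtrl 2, RSAD2 51.2-fold, OAS2 19.4-fold, OASL 16.1-fold, MX2 15.05-fold, IFI6 15.04-fold, DHX58 10.6-fold, IFI44L 9.80-fold and IRF7 9.33-fold. BST2, RSAD2, MX2 and DHX58 had only 7, 9, 11 and 6 counts in shCtrl 1, so their folds are uncertain. On the log2(CPM + 0.5) scale, their ratios of shCtrl 2 to shCtrl 1 were 6.43, 4.73, 3.15 and 2.30. Of the IFIT genes, IFIT2 was 1.07-fold, IFIT3 1.09-fold, IFIT5 1.14-fold and IFIT1 2.32-fold higher in shCtrl 2. These are 1 library each, with no replicate check, and what else differed between the sets is not given in the labels. The median log2 ratio of shCtrl 2 to shCtrl 1 was 3.23 for the OAS genes, 2.52 for the MX genes and 0.16 for the IFIT genes, and -0.00 for all genes tested.

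Genes with the response element core had median changes of 0.54, 0.44 and -0.06 in shCCT2 1, 2 and 3 (18 genes tested), and genes without it -0.02, 0.29 and -0.31 (11 genes). These medians are a description of the lists and were not tested against each other. DHX58, IRF7, OAS2, OASL, IFIT2, MX2, USP18 and TRIM22 had no promoter window and are in neither list.

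No gene of the upstream parts of the pathway passed the test (0% of all genes did). Of the interferon genes themselves, IFNE alone passed the filter on low counts, and IFNB1 was listed in neither set. IFNA1 and IFNK were listed in set A alone, and the interferon lambda genes IFNL1, IFNL2 and IFNL3 in set B alone. The ligand genes listed summed to between 0.5996 and 1.97 CPM in shCCT2 and between 0.635 and 1.61 CPM in shCtrl. These sums thus cover different genes in the sets and cannot be compared between them. Of 11 receptor and signalling genes, the fitted change was above 0 for 4 and below 0 for 7. Over all genes 48.5% were above 0, which is the share to set beside the counts of each list here. The receptor gene IFNAR1 stood at 82.9, 78.4 and 164 CPM in shCCT2 1, 2 and 3, against 67.1 and 86.5 CPM in shCtrl 1 and 2. IFNGR1, a receptor chain for interferon gamma, had a fitted change of -0.50 ± 0.23, and IFNAR1 of 0.54 ± 0.21 (SE; adjusted p = 0.542 for both, edgeR). Of 11 adaptors and sensors of nucleic acid signalling 7 were higher and 4 lower, with the kinase gene IKBKE at 0.40 ± 0.32 and the adaptor gene TRAF3 at 0.35 ± 0.23 (SE). Of 12 negative regulators 6 were higher and 6 lower, with IRF2, a repressor of interferon genes, at -0.71 ± 0.38 and the phosphatase gene PTPN6 at -1.55 ± 0.88. PTPN6 stood at 28.3 and 35.3 CPM in shCCT2 1 and 2, against 34.4 in shCtrl 1, and at 0.545 CPM in shCCT2 3, against 10.01 CPM in shCtrl 2.

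A wider set of 35 interferon-induced genes, such as the IFITM and TRIM genes, was split, 19 above and 16 below 0 in the fit, with medians of -0.13, 0.05 and -0.02 in shCCT2 1, 2 and 3. ZNFX1, an RNA-sensing helicase gene, had a fitted change of 0.51 ± 0.20 and IFITM3, which blocks viral fusion, of -0.52 ± 0.25 (SE; adjusted p = 0.542 for both, edgeR). Of 9 genes linked to interferon gamma, 3 were higher and 6 lower. CD274, which encodes the immune checkpoint ligand PD-L1, stood at 24.1 and 21.9 CPM in shCCT2 1 and 2, against 13.5 in shCtrl 1, and at 33.7 CPM in shCCT2 3, against 6.83 in shCtrl 2. GBP1, a guanylate-binding protein gene, had a fitted change of -0.86 ± 0.38, and CD274 of 1.39 ± 0.39 (SE; adjusted p = 0.542 for both, edgeR). No gene of these lists passed the adjusted threshold, and 48.5% of all genes had a fitted change above 0. IFI16 is counted among both the adaptors and the wider set, and SOCS1 among both the negative regulators and the interferon gamma genes.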

How the data were processed

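The 2 gene tables that the authors deposited hold estimated counts, under column names that speak of read counts; 86.2% to 87.9% of a library's values were whole, and IRF1, IFIT3, MX1 and PARP9 had values that were not. The submitters' processing notes list STAR 1.5.1, HTSeq and mm10, a mouse build, whereas the gene identifiers are human. Not given in the sources used here are build, annotation and use of strand: antisense partners cannot be told apart, and close relatives among the OAS, IFIT and MX genes are uncertain. Libraries were of mRNA, enriched on oligo(dT) and primed at random, per the labels. A signal of coverage along transcripts, also deposited per library, was read as the share in the last 20% of windows.

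Tables were joined on the gene identifier (15187 shared genes), rounded, and tested in R 4.3.3 by quasi-likelihood (edgeR 4.0.16) after TMM scaling (factors 0.936 to 1.12) and filterByExpr, with a term for the set (2 residual degrees of freedom). Library sizes were the deposited totals. The SE is the fitted log2 change over the square root of F. The threshold was an adjusted p (Benjamini-Hochberg) under 0.05 over all genes tested. Set A alone and the interaction of hairpin and table were fitted likewise. CPM is not scaled to transcript length. Mean CPM served to choose genes by the rule below, and no result compares levels between the interferon genes. The sums over marker and ligand lists, and the genes said to make up most of them, rest on this unscaled CPM. Alternatives were DESeq2 1.42.0, other scalings and filters, no table term, a replicate block, robust estimation, each library left out and other pseudocounts.

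The members, lists, tests and naming rule were chosen with earlier results of these data known. The rule gives every library's value for members past the adjusted threshold in any fit, at an unadjusted p under 0.05 over all libraries, among the 3 with the highest mean CPM in their role subgroup, or at least 4-fold apart between the controls with at least 10 counts. It names the 2 genes per other list with the smallest p and a mean of at least 5 CPM. RefSeq windows matched a GENCODE transcript on their strand in 37 of 41 cases and on the opposite strand in 0.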

Additional observations from a re-analysis of the deposited data

Results flagged for a closer look

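The median log2 change of the 37 interferon genes was -0.086 in set B, on the other side of 0 from both shCCT2 libraries of set A (0.30 and 0.38); the difference of these medians was not tested. IFI27, which no comparison across the sets could use because it was listed in set B alone, had a log2 change of 1.69 in shCCT2 3 against shCtrl 2.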

How the results depend on the processing

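The count of interferon genes called over all libraries was 0 under each alternative run, and within set A it was 0 under each scaling and filter run. Over all genes, DESeq2's Wald test called 17 genes in place of 0, and leaving out 1 library gave between 0 and 2 calls (2 without shCCT2 2). The test of the difference between the sets called 9 interferon genes without scaling beyond library size and 8 with at least 1 CPM in every library, in place of 0; the cause was not tested, and these calls rest on the spread of 1 pair of libraries. The median fitted change of the interferon genes, 0.21 with the table as a term, was -0.039 with no table term and -0.38 with the replicate number as a block. The median was -0.058 without shCtrl 1, 0.52 without shCtrl 2 and 0.51 without shCCT2 3, where the change then comes from 1 set. It was 0.14 without shCCT2 1 and 0.21 without shCCT2 2, where both sets still contribute. The labels do not say that the replicate numbers pair samples: libraries numbered 1 share set A, and those numbered 2 come from different tables. The correlations of deviations from group means were 0.68 for number 1 and -0.59 for number 2. The deviations of 2 controls from their mean mirror each other, so these correlations cannot decide whether the numbers pair samples. Of the 31 or 32 genes described in full and tested, 9 changed sign without shCtrl 1, 6 without shCtrl 2 or without shCCT2 3, 13 under the block and 5 with no table term, none of them past the threshold. The medians of single libraries moved by less than their spread (SD 0.249) under each pseudocount, scaling and filter run. Set A without shCCT2 1 or shCCT2 2 leaves no residual degrees of freedom and was not fitted.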
